A study of Homo sapiens with 12 samples.

Results

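The type 2 cytokine genes of the long arm of human chromosome 5 were followed across drug treatments of a T cell lymphoma line. The members are IL3, CSF2, IL4, IL5, IL13 and IL9, chosen by gene name, and each matched 1 entry of the count table, 6 of 59050 gene names. MyLa is an established line of cutaneous T cell lymphoma, a cancer of T cells that home to the skin, and RNA was measured by bulk RNA sequencing in 12 libraries, 3 for each of 4 treatments. The treatments were DMSO (the solvent), romidepsin at 3.2 nM, afatinib dimaleate at 5.7 uM and the combination of both drugs, each for 24 hours and with the DMSO volume matched to the combination. Romidepsin inhibits histone deacetylases, enzymes that remove acetyl groups from histones, and afatinib blocks kinases of ERBB receptors such as EGFR. All 4 groups, the DMSO group included, grew with interleukin-2 (20 ng/mL) and 20% fetal bovine serum. The groups come from 1 cell line, and separate cultures are not mentioned for the libraries of one treatment. The p-values below therefore rest on the scatter among libraries alone, and this scatter may be technical.

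Type 2 helper T cells are known for IL4, IL5 and IL13, which drive allergic inflammation and antibody class switching, eosinophil growth and tissue responses of the skin, gut and airway. IL9, a growth factor of mast cells and T cells, is made by a related helper state, while IL3 and CSF2 are growth factors of myeloid cells that activated T cells release. Each cytokine acts through a receptor that signals by JAK kinases to STAT proteins, and in cutaneous T cell lymphoma the type 2 cytokines are known as products of the malignant cells.

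In the count table (GRCh38), IL3 lies at chr5:132060529-132063204, CSF2 at chr5:132073789-132076170, IL5 at chr5:132541445-132556838, IL13 at chr5:132656263-132661110 and IL4 at chr5:132673986-132682678. IL9 lies apart, at chr5:135892246-135895827, 3210 kb beyond IL4. IL5 and IL9 are on the minus strand and the other 4 on the plus strand. The gap between IL3 and CSF2 is 10.6 kb, that between IL5 and IL13 is 99.4 kb and that between IL13 and IL4 is 12.9 kb. The span of IL5 overlaps RAD50, and the span of IL13 overlaps the antisense RNA TH2LCRR. The overlapping genes share 0 exon bases with these members, and the counting used no strand, so reads of a partner that fall in a member's exons cannot be told from the member's own.

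The promoters of IL9, IL13 and IL4 are shown because the RNA of these genes followed 3 different patterns over the treatments. Each line is the 250 bases before the start in RefSeq (GRCh38.p14), which held 5 of the 6 members (not IL5). For IL13, which has more than 1 listed start, the window without counted exon bases is shown. IL9 is at chr5:135895842-135896091 on the minus strand, IL13 at chr5:132657923-132658172 and IL4 at chr5:132673739-132673988 on the plus strand. Capitals mark matches on either strand to the motifs named in the next paragraph.
IL9: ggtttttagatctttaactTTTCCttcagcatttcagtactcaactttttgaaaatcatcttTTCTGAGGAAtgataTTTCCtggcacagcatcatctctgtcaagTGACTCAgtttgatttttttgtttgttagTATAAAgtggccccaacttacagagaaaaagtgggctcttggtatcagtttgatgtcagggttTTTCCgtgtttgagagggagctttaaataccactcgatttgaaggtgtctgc
IL13: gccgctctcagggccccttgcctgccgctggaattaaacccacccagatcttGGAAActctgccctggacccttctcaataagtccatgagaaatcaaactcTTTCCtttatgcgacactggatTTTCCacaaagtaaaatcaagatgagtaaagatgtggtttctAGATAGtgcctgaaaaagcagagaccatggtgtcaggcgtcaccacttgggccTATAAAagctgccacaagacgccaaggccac
IL4: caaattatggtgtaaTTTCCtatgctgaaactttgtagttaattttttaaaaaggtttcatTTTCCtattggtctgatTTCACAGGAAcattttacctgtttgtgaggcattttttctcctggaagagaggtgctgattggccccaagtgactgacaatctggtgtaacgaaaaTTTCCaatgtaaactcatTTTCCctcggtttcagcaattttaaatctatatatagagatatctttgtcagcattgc

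The NFAT core GGAAA, which reads TTTCC on the other strand, occurred 3 times in the window of IL9, 3 times in that of IL13 and 4 times in that of IL4, and 55.7% of 34788 promoter windows of this length held it. The AP-1 motif TGANTCA occurred once in the IL9 window, 144 bases before the start, and in none of the other members' windows (6.59% of all windows). The STAT6-type motif TTCNNNNGAA occurred in the windows of IL9 and IL4 (5.36% of all windows). A GATA motif (either of AGATAA and AGATAG, or with T as the first letter) occurred in those of IL13, CSF2 and IL3 (22.4%). TATAAA stood 31 bases before the start of IL13 and 115 bases before that of IL9 (10.8%). In CSF2 the STAT5-type motif TTCNNNGAA (6.57%) overlapped 1 of its 3 matches to GGAAA. The windows of IL9 and IL4 each held 2 CpG sites, against a median of 11 over all windows. These are matches of letters only, and binding was not measured.

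Total counts were 8972228 to 12696653 per library, and 3 counts in a library correspond to 0.236 to 0.334 CPM, the count scaled to a common library size with TMM factors. Of the T cell markers, 11 of 12 had more than 3 counts in some library, and their summed level was 370 to 414 CPM with DMSO, 161 to 176 with romidepsin, 256 to 277 with afatinib and 88.6 to 93.3 with the combination, while CD3E, CD5, CD7 and CD28 had at most 7 counts in any library. PTPRC went against this sum with romidepsin, with means of 21.9 CPM with DMSO and 42.9 with romidepsin. The markers CPA3 and MS4A2 of mast cells and basophils, SIGLEC8 and CLC of eosinophils and MS4A1 of B cells were at 0 in all 12 libraries. The summed mast cell and basophil list did not exceed 2.04 CPM. Other listed markers had reads: EPX of eosinophils had 9 to 32 counts per library, and CD79A and PAX5 of B cells 17 to 56 and 0 to 38. The fibroblast list, mainly COL1A1 and COL3A1, was highest with DMSO (173 to 199 CPM) and lowest with the combination (14.6 to 17.2). The myeloid list was highest with romidepsin (37.6 to 43.5 CPM) and lowest with the combination (21.3 to 23.2). Its main markers moved in opposite directions with romidepsin. CSF1R had means of 6.96 CPM with DMSO and 32.5 with romidepsin, and ITGAM 25.2 and 8.41. The 5 markers of type 2 innate lymphoid cells summed to 32.4 to 40.1 CPM with DMSO, 77.7 to 79.4 with romidepsin, 13.6 to 14.3 with afatinib and 25.3 to 27.8 with the combination. Of these 5 markers IL1RL1 had at most 1 count and PTGDR2 at most 9 in any library, and IL7R, which T cells also express, had 87 to 893. The part of these marker levels in the cytokine results was not tested. KRT5, a keratin of basal skin cells, had 43 to 126 counts in DMSO replicates 1 and 2, afatinib replicate 3 and combination replicate 1 and at most 1 count elsewhere. KRT10, another listed keratin, had reads in every library (394 to 1015 counts). Its means were 41.5 CPM with DMSO, 44.9 with romidepsin, 75.6 with afatinib and 74.2 with the combination. In bulk samples, fewer cells that express a gene and less RNA per cell cannot be told apart.

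IL9 and IL13 were the 2 abundant members, and their RNA moved apart. IL9 rose 20.1-fold with romidepsin and was 16.8-fold above DMSO with the combination, whereas IL13 rose 1.20-fold with romidepsin and fell to 4.76-fold below DMSO with the combination. Afatinib alone lowered IL9, IL13 and IL5. IL5 rose with romidepsin and was low with the combination, IL4 was detected mainly with the combination, and CSF2 and IL3 were near the limit of detection in all groups. Genes were tested with edgeR's quasi-likelihood test, with Benjamini-Hochberg adjustment over 16208 genes and a threshold of 0.05. IL9 and IL13 passed the filter on low counts in all 12 libraries. IL5 passed in 7, all 6 of DMSO and romidepsin and 1 of the combination. IL4 passed only through the 3 combination libraries, so its difference there was part of its selection and is given without a test. CSF2 (13 counts over all libraries) and IL3 (4 counts) were not tested.

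With romidepsin 3 members were higher than with DMSO (IL9, IL5 and IL13), where 31.1% of all tested genes were higher and 31.5% lower. With afatinib 3 members were lower than with DMSO (IL9, IL13 and IL5), where 23.3% of tested genes were lower and 22% higher. The genes called in either direction in that comparison numbered 7351. Fewer were called without the 4 libraries with KRT5 reads, a fit that kept only DMSO replicate 3 of the DMSO group. IL4 is not counted in any of these comparisons, since it was tested only because of its level in the combination. With the combination 1 member was higher (IL9) and 2 were lower (IL13 and IL5) than with DMSO, where 37.2% of tested genes were higher and 37.1% lower. Against romidepsin alone, the combination had 3 members lower (IL9, IL13 and IL5; 29.2% of tested genes) and none higher (25.1% of tested genes). Against afatinib alone, 2 were higher (IL9 and IL5; 33.4%) and 1 was lower (IL13; 35.8%). Romidepsin had IL9, IL5 and IL13 higher than afatinib, where 32.2% of tested genes were higher. These comparisons share libraries, so their counts are not independent of each other.

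**Figure D1:**
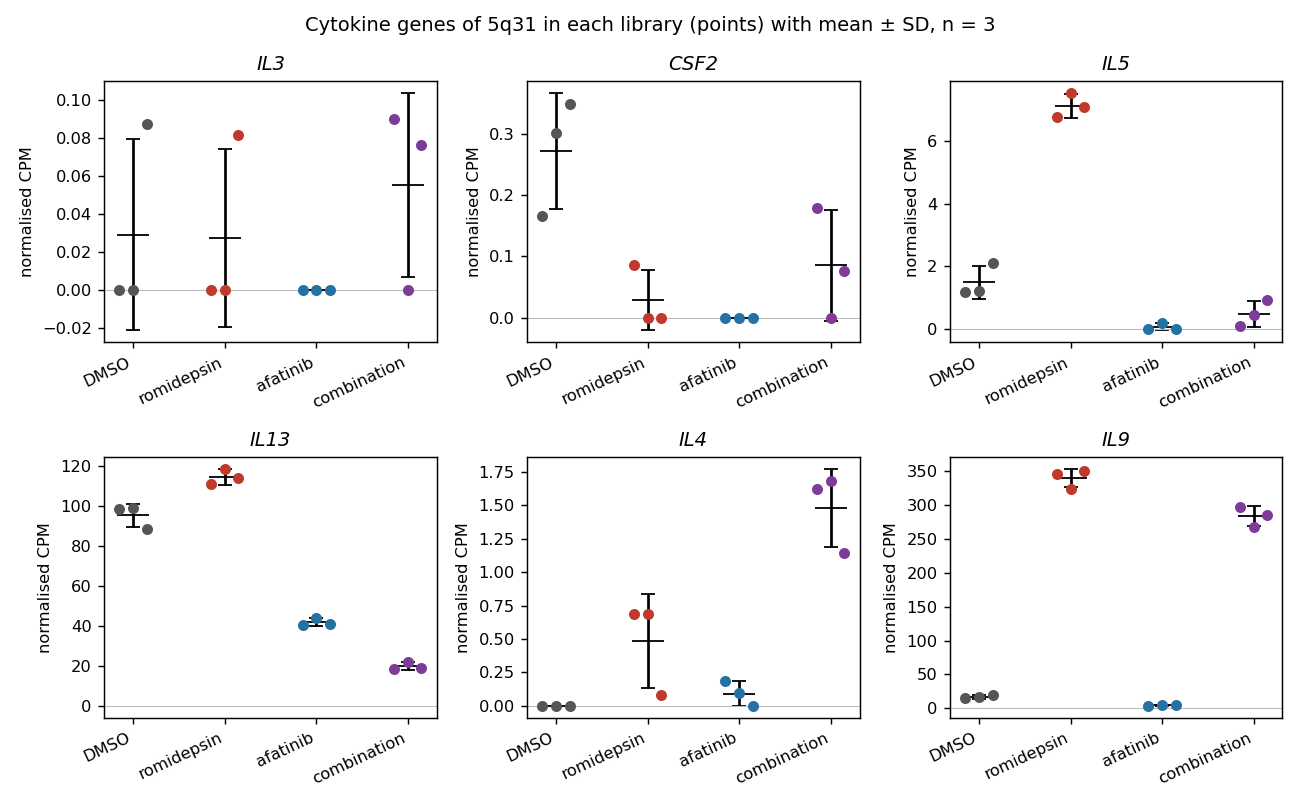
Normalised CPM (vertical axis, a separate linear scale for each gene) of the 6 members in the 12 libraries by treatment, with points for libraries and bars for mean ± SD (n = 3; bars may extend below 0). IL9 was 325 to 350.5 CPM with romidepsin against 14.7 to 19.8 with DMSO, and IL13 was lowest with the combination (18.7 to 22.3 CPM).

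IL9 RNA was 14.7, 16.3 and 19.8 CPM in the 3 DMSO libraries and 346, 325 and 350.5 CPM with romidepsin. It was 3.31, 4.44 and 4.89 CPM with afatinib and 297, 268 and 286 CPM with the combination. No groups overlapped, and the order from high to low was romidepsin, combination, DMSO, afatinib. The rise with romidepsin was 4.33 on the log2 scale (SE 0.08, 95% interval 4.17 to 4.50, edgeR adjusted p = 1.31e-39). Afatinib alone changed IL9 by -1.99 (SE 0.13), 3.98-fold lower (edgeR adjusted p = 2.74e-17). The combination was 4.07 above DMSO (SE 0.08, edgeR adjusted p = 3.54e-39) and 6.06 above afatinib alone (SE 0.10, edgeR adjusted p = 6.78e-42). Between romidepsin and the combination the step was small, 1.20-fold lower with the combination (log2 -0.26, SE 0.06, edgeR adjusted p = 0.000421). The position of IL9 among expressed genes changed accordingly. Per kilobase of counted exon (RPKM), IL9 was 28.6 ± 4.41 with DMSO and 576 ± 23.5 with romidepsin (SD, n = 3), and by mean RPKM it went from place 1683 to place 46 of 16208 tested genes. With afatinib it was 7.13 ± 1.38 RPKM, place 5636, and with the combination 480 ± 24.9 RPKM, place 54 (SD, n = 3).

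IL13 RNA was 98.4, 99.2 and 88.7 CPM with DMSO and 111, 119 and 114 CPM with romidepsin. It was 40.7, 44.1 and 40.8 CPM with afatinib and 18.7, 22.3 and 19.0 CPM with the combination. These groups did not overlap either, but the combination was here the lowest group and not the second highest. Romidepsin changed IL13 by 0.27 on the log2 scale (SE 0.07, 95% interval 0.12 to 0.41, edgeR adjusted p = 0.000953), the smallest fitted rise among the 4 tested members. Afatinib changed it by -1.19 (SE 0.08), 2.28-fold lower (edgeR adjusted p = 3.23e-18). The combination changed it by -2.25 against DMSO (SE 0.08, edgeR adjusted p = 6.67e-29) and by -2.52 against romidepsin (SE 0.08, edgeR adjusted p = 8.94e-30), which is 5.72-fold lower. Against afatinib alone the combination was 2.09-fold lower (log2 -1.06, SE 0.09, edgeR adjusted p = 2.34e-15). Per kilobase, IL13 was 33.1 ± 2.03 RPKM with DMSO, 39.7 ± 1.35 with romidepsin, 14.5 ± 0.672 with afatinib and 6.92 ± 0.684 with the combination (SD, n = 3). Its place among tested genes was 1408, 972, 3193 and 5480 in that order. Without the 4 libraries with KRT5 reads the change with romidepsin was 0.42 on the log2 scale. That fit kept only DMSO replicate 3 of the DMSO group, the DMSO library with the lowest IL13.

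IL5, the growth factor of eosinophils, had 14, 12 and 24 counts with DMSO and 79, 66 and 87 with romidepsin. It had 0, 2 and 0 counts with afatinib and 1, 6 and 12 with the combination. In CPM these were 1.17, 1.21 and 2.10 with DMSO, 6.77, 7.55 and 7.08 with romidepsin, at most 0.189 with afatinib and 0.0899, 0.457 and 0.915 with the combination. Romidepsin stood apart from the other 3 groups, and the combination overlapped only afatinib. The rise with romidepsin was 4.73-fold (log2 2.24, SE 0.31, edgeR adjusted p = 2.26e-08). For afatinib the summed counts of 50 with DMSO against 2 gave a ratio of 23.7 per total count (95% counting interval 6.23 to 201), and edgeR's adjusted p was 1.09e-06. With the combination IL5 was 2.92-fold below DMSO (log2 -1.54, SE 0.46, edgeR adjusted p = 0.00231) and 13.8-fold below romidepsin (log2 -3.79, SE 0.37, edgeR adjusted p = 2.73e-12). Single libraries weighed on the smaller counts. Without afatinib replicate 2, which held both afatinib counts, the fitted change against DMSO was -7.12, and without afatinib replicate 3 it was -3.84. The combination against DMSO was -2.34 without combination replicate 3 and -1.11 without combination replicate 1, and against romidepsin it was -4.58 and -3.36. These values all stayed past the threshold. The combination against afatinib, 19 against 2 counts (ratio 8.65, 95% counting interval 2.09 to 76.6, edgeR adjusted p = 0.00343), was no longer called without combination replicate 3 (edgeR adjusted p = 0.0697).

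IL4, the cytokine that gives type 2 helper cells their name and directs B cells to IgE, had 0 counts in every DMSO library. It had 8, 6 and 1 counts with romidepsin, 2, 1 and 0 with afatinib and 18, 22 and 15 with the combination. The combination libraries were the highest, at 1.14 to 1.68 CPM, and did not overlap any other group, while romidepsin replicate 3 fell within the range of afatinib. With 3 counts over the DMSO group as the floor, IL4 was at least 5.16-fold higher with romidepsin (edgeR adjusted p = 0.000947) and at least 17.6-fold higher with the combination. The combination had 55 summed counts against 15 with romidepsin, a ratio of 3.41 per total count (95% counting interval 1.90 to 6.50), and without romidepsin replicate 3 the fitted log2 difference was 1.08 in place of 1.65. Against afatinib, with 3 summed counts, the ratio of the combination was 16.7 (95% counting interval 5.42 to 83.4). Neither interval is a test, because the level in the combination selected the gene. Romidepsin against afatinib, 15 against 3 counts (ratio 4.90, 95% counting interval 1.38 to 26.4, edgeR adjusted p = 0.0299), was lost when any one of romidepsin replicates 1 and 2 and afatinib replicates 2 and 3 was left out. Afatinib against DMSO was not called (edgeR adjusted p = 0.157). Comparisons without the combination also tested IL4 only because of its level in the combination. The combination held the highest IL4 and the lowest IL13 of the 4 groups, and the genes are 12.9 kb apart.

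CSF2, which encodes the growth factor GM-CSF, had 2, 3 and 4 counts with DMSO, 1, 0 and 0 with romidepsin, 0 in each afatinib library and 2, 0 and 1 with the combination. The DMSO group was highest, 9 summed counts against 0 with afatinib, at least 2.85-fold lower with afatinib when 3 counts over the group are the floor. Against romidepsin the ratio of DMSO was 8.72 (95% counting interval 1.21 to 382) and against the combination 3.12 (0.780 to 17.9). In a fit with no filter on low counts, over 33830 genes, CSF2 with afatinib against DMSO had an edgeR adjusted p of 0.0487, and romidepsin and the combination against DMSO had 0.178 and 0.378. IL3, the neighbour of CSF2, had at most 1 count in any library and 4 in all, and its lowest edgeR adjusted p in that fit was 0.383. Differences in IL3 were not detectable at this depth. The intervals and floors cover counting error only.

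**Figure D2:**
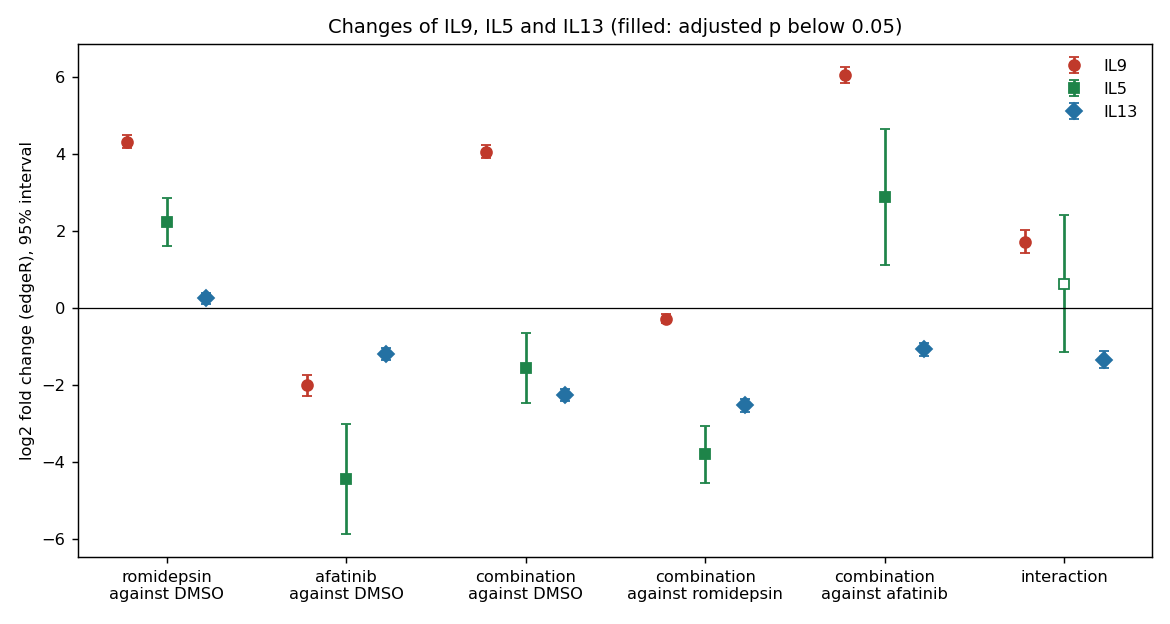
Log2 fold changes from edgeR (vertical axis, bars 95% intervals) of IL9, IL5 and IL13 for 5 comparisons and the interaction, with open symbols for values not past the threshold. Combination against romidepsin was -0.26 for IL9, -3.79 for IL5 and -2.52 for IL13, and IL4 is not drawn because it had no counts with DMSO.

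Because IL9 and IL13 moved apart, the make-up of the cytokine RNA differed between treatments. The ratio of IL9 to IL13 in RPKM was 0.727, 0.804 and 1.09 in the DMSO libraries and 0.397, 0.492 and 0.585 with afatinib. It was 13.3 to 15.2 with romidepsin and 77.7, 58.9 and 73.6 with the combination. The groups did not overlap, and IL13 was the more abundant of the pair in 2 of 3 DMSO libraries and in all 3 afatinib libraries. Of all counts of the 6 genes, IL9 made up 12.8% to 17.8% with DMSO, 71.9% to 74.5% with romidepsin, 7.48% to 10.7% with afatinib and 91.7% to 93.5% with the combination. The summed level of the 6 genes was 111 to 117 CPM with DMSO, 452 to 472 with romidepsin, 44.2 to 48.9 with afatinib and 293 to 318 with the combination.

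**Figure D3:**
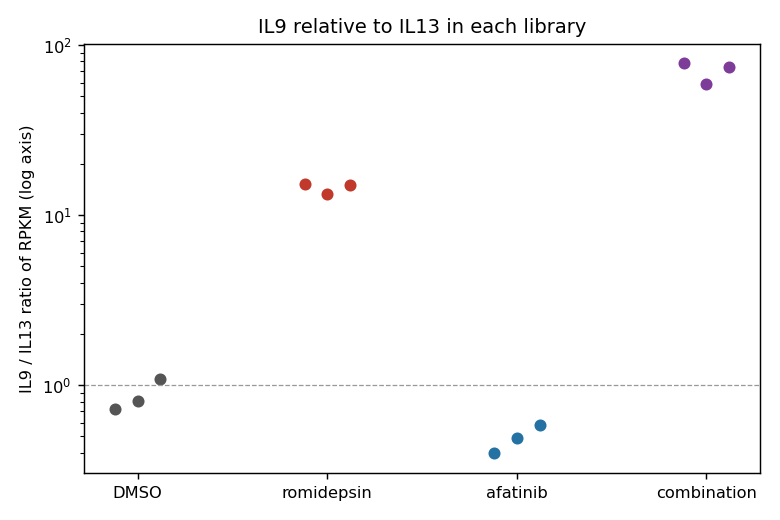
Ratio of IL9 to IL13 in RPKM in each library (log axis, points are libraries, the dashed line marks equal levels). The combination libraries lay at 58.9 to 77.7 and the afatinib libraries at 0.397 to 0.585.

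The afatinib change was then compared without romidepsin (afatinib against DMSO) and with it (combination against romidepsin), which are comparisons that share no library. IL9 changed by -1.99 without and -0.26 with romidepsin, and the difference, the interaction, was 1.73 on the log2 scale (SE 0.15, 95% interval 1.43 to 2.03, edgeR adjusted p = 5.24e-13). IL13 changed by -1.19 without and -2.52 with romidepsin, an interaction of -1.33 (SE 0.11, 95% interval -1.55 to -1.10, edgeR adjusted p = 1.83e-13). The afatinib decrease was therefore smaller for IL9 and larger for IL13 in the presence of romidepsin. Interactions above 0 were called for 11.7% of tested genes and those below 0 for 18.5%. For IL5 the interaction was 0.64 (95% interval -1.14 to 2.43, edgeR adjusted p = 0.639), an interval too wide to tell a difference from none. IL4 is left out here, since the combination enters the interaction. If the fold changes of the single drugs multiplied, the combination would hold 84.8 CPM of IL9 and 50.4 CPM of IL13. The measured means were 284 ± 14.7 and 20.0 ± 1.97 CPM (SD, n = 3), 3.35 and 0.397 times those values.

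**Figure D4:**
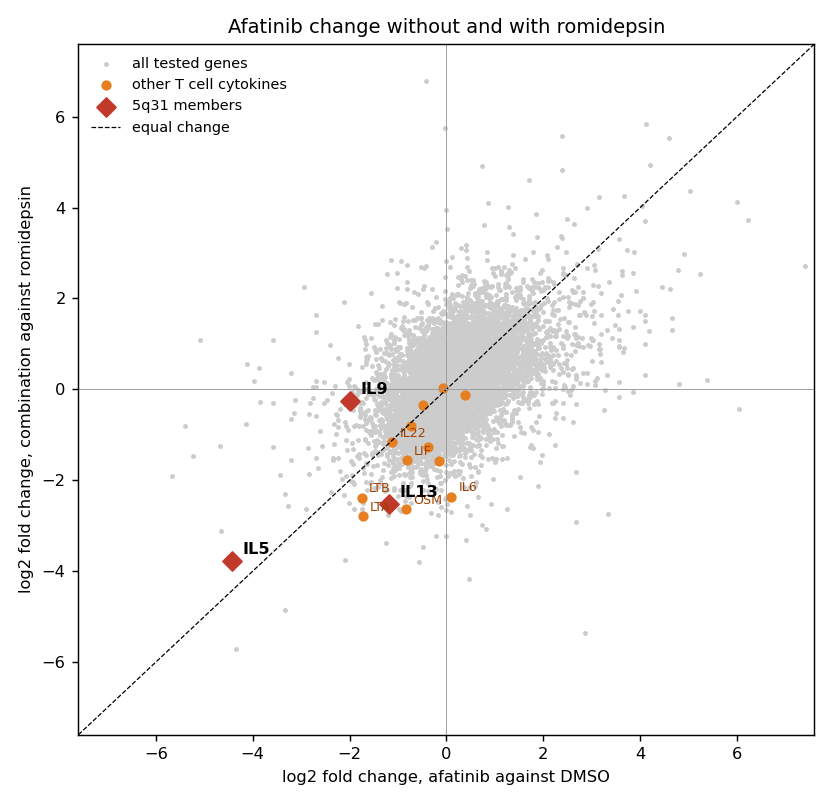
Log2 fold change of afatinib against DMSO (horizontal axis) and of the combination against romidepsin (vertical axis) for the 16208 tested genes, with IL9, IL13, IL5 and other T cell cytokines marked and a dashed line of equal change. IL9 (-1.99 and -0.26) lies above the line and IL13 (-1.19 and -2.52) below it.

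Of the 9 listed receptor chains of these cytokines 3 could be tested, and all 3 fell with romidepsin and with the combination (median log2 change -1.04 and -1.46, against -0.00 and -0.01 over all tested genes, of which 31.5% and 37.1% fell). IL4R, the chain shared by the receptors of IL4 and IL13, was 229 ± 9.87 CPM with DMSO, 111 ± 2.33 with romidepsin, 252 ± 4.18 with afatinib and 83.4 ± 4.56 with the combination (SD, n = 3). CSF2RB, the common chain of the receptors of IL3, IL5 and GM-CSF, fell from 175 ± 7.09 CPM to 14.2 ± 1.54 with romidepsin (log2 -3.61, SE 0.09, edgeR adjusted p = 1.02e-35) and 6.59 ± 1.39 with the combination. It was 141 ± 3.29 CPM with afatinib (log2 -0.32, SE 0.07, edgeR adjusted p = 0.000128). IL2RG, the common gamma chain that the IL4 and IL9 receptors use, changed by -0.59 with romidepsin and -0.63 with the combination, and with afatinib its value was -0.13 (edgeR adjusted p = 0.235). IL13RA1, IL13RA2 and IL5RA had at most 3 counts in any library. IL9R, IL3RA, CSF2RA and CRLF2 are listed at 0 in every library, and no level can be read from this. They are annotated on both X and Y, where 45 of 47 names are at 0, and reads that map to more than 1 place were left out of the counts.

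The signalling list of JAK, STAT, SOCS and PIM genes had 14 tested members, of which 7 rose and 5 fell with romidepsin (median 0.40, against -0.00 over all tested genes), and 4 rose and 9 fell with afatinib (median -0.27, against 0.00). Of all tested genes 31.1% rose and 31.5% fell with romidepsin, and 22% rose and 23.3% fell with afatinib. STAT6, which carries the signal of IL4 and IL13, fell from 417 ± 8.46 CPM with DMSO to 107 ± 6.11 with romidepsin (log2 -1.96, SE 0.06, edgeR adjusted p = 8.71e-32), and was 327 ± 14.1 with afatinib and 67.8 ± 2.43 with the combination (SD, n = 3). STAT5A and STAT5B, which act downstream of interleukin-2, IL3, IL5, IL9 and GM-CSF, changed by -1.33 and -1.13 with romidepsin and by -1.90 and -1.39 with the combination. STAT3 and its target SOCS3, an inhibitor of JAK signalling, rose by 1.97 and 2.09 with romidepsin and by 1.91 and 2.35 with the combination. PIM2, a kinase gene induced by STAT5, rose by 1.97 with romidepsin, changed by -1.25 with afatinib and by -0.96 with the combination against romidepsin.

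Of 42 listed transcription factors of type 2 and IL9 cytokine genes 37 were tested. With romidepsin 14 rose and 12 fell (median 0.18), with afatinib 7 rose and 13 fell (median -0.10), and with the combination against romidepsin 8 rose and 17 fell (median -0.08). The medians over all tested genes were -0.00, 0.00 and -0.03. The background shares, rising and falling, were 31.1% and 31.5% with romidepsin, 22% and 23.3% with afatinib and 25.1% and 29.2% in the combination against romidepsin. GATA3, the lineage factor of type 2 helper cells, was 273 ± 5.22 CPM with DMSO, 319 ± 3.29 with romidepsin, 248 ± 3.72 with afatinib and 213 ± 1.84 with the combination (SD, n = 3). Its order over the treatments was that of IL13, with smaller steps, 0.22 with romidepsin, -0.14 with afatinib and -0.58 for the combination against romidepsin. MAF, an activator of IL4, rose from 1.37 ± 0.474 CPM to 23.4 ± 0.811 with romidepsin (log2 4.10, SE 0.19, edgeR adjusted p = 2.88e-24) and 29.4 ± 1.32 with the combination (SD, n = 3). IRF4, which binds the promoter of IL9, rose by 1.59 with romidepsin and 1.66 with the combination, and for the combination against romidepsin its value was 0.07 (edgeR adjusted p = 0.268). BATF, a partner of IRF4, moved the other way, by -1.16 with romidepsin and -0.98 with the combination. EGR1, an immediate early gene of growth factor signalling, changed by -2.84 with afatinib, and its interaction was 2.31. ETV5 rose with romidepsin (2.36), afatinib (1.53) and the combination (3.98), and CEBPB rose with afatinib (2.47). GFI1 and JUND changed by -1.56 and 1.43 in the combination against romidepsin.

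Of 9 tested other genes of type 2 helper cells 5 fell and 1 rose with romidepsin (median -0.70), 6 fell and 1 rose with afatinib (median -0.22), and 6 fell and 2 rose with the combination against DMSO (median -1.77). Of all tested genes 31.5% fell with romidepsin, 23.3% with afatinib and 37.1% with the combination, with medians of -0.00, 0.00 and -0.01. CCR4, a skin-homing receptor of these cells, was 463 ± 27.4 CPM with DMSO, 131 ± 0.812 with romidepsin, 408 ± 6.21 with afatinib and 89.4 ± 8.37 with the combination (SD, n = 3). ICOS, a costimulatory receptor, changed by -0.86 with romidepsin, -0.22 with afatinib and -1.77 with the combination. IL21R changed by -0.70 with romidepsin and by 1.05 in the combination against romidepsin.

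Among the other T cell cytokines, 12 of 27 listed genes were tested. The combination against romidepsin had 10 of these 12 lower and none higher (median -1.42, against -0.03 over all tested genes), and afatinib against DMSO had 7 lower and 1 higher (median -0.61, against 0.00). Of all tested genes 29.2% and 23.3% were lower in these comparisons. IL22, a cytokine that acts on keratinocytes, was 1.83 ± 1.22 CPM with DMSO, 202 ± 1.59 with romidepsin, 0.831 ± 0.112 with afatinib and 90.1 ± 5.28 with the combination (SD, n = 3). Its rise with romidepsin was 6.80 on the log2 scale (SE 0.14, edgeR adjusted p = 6.07e-34), against 4.33 for IL9, and its order over the treatments was that of IL9. LTA, the lymphotoxin gene, was 104 ± 3.93 CPM with DMSO, 83.9 ± 4.88 with romidepsin, 31.7 ± 3.86 with afatinib and 12.2 ± 1.63 with the combination (SD, n = 3), and OSM was 383 ± 36.2, 296 ± 15.9, 216 ± 6.63 and 47.4 ± 2.74. In both, as in IL13, the combination held the lowest level. For the combination against romidepsin the log2 changes were -2.79 for LTA, -2.64 for OSM, -2.38 for LTB and -2.36 for IL6. The interactions of LTA, OSM and IL6 were -1.07, -1.81 and -2.47. LIF, a cytokine of the IL6 family, changed by -2.92 with romidepsin and -4.48 with the combination. Of 12 tested cytokines 0 had an interaction called above 0, 7 had one called below 0 and 5 were not called. The median was -0.69, against -0.06 over all tested genes. The interaction of IL9 was called above 0. Of all tested genes 11.7% had an interaction called above 0 and 18.5% one called below 0.

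The list from the T cell receptor to NFAT and AP-1, the route that switches these cytokines on in a stimulated T cell, had 18 tested members, of which 6 rose and 8 fell with romidepsin and 4 rose and 3 fell with afatinib (medians -0.13 and 0.03, against -0.00 and 0.00 over all tested genes). Over all tested genes 31.1% rose and 31.5% fell with romidepsin, and 22% rose and 23.3% fell with afatinib. ZAP70, the kinase at the receptor, fell by 1.81 on the log2 scale with romidepsin, and PPP3CA, a catalytic subunit of calcineurin, rose by 1.81. VAV1 changed by -1.01 with afatinib.

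Genes beside the members on the chromosome did not share 1 direction. Within 250 kb of a member 54 gene names were listed and 20 tested, of which 10 rose and 3 fell with romidepsin (median 0.37), 3 rose and 4 fell with afatinib (median 0.03), and 11 rose and 5 fell with the combination against DMSO (median 0.74; the medians over all tested genes were -0.00, 0.00 and -0.01). Of all tested genes 31.1% rose and 31.5% fell with romidepsin, 22% rose and 23.3% fell with afatinib, and 37.2% rose and 37.1% fell with the combination. The share of neighbours called in either direction was thus close to that of all tested genes with romidepsin and below it with afatinib. By direction, more neighbours rose than fell with romidepsin and with the combination, whereas over all tested genes the 2 shares were nearly equal. KIF3A, a kinesin gene beside IL4, was 25.9 ± 2.66 CPM with DMSO and 92.1 ± 6.38 with romidepsin, with 25.8 ± 1.47 for afatinib and 92.2 ± 5.58 for the combination (SD, n = 3). Its combination value against romidepsin was 0.01 on the log2 scale (edgeR adjusted p = 0.95), where that of IL13 was -2.52. RAD50, the DNA repair gene whose span overlaps IL5, changed by 0.51 with romidepsin and -0.30 in the combination against romidepsin, against 2.24 and -3.79 for IL5, and for afatinib its value was 0.17 (edgeR adjusted p = 0.0995). TH2LCRR, the RNA antisense to IL13, had 6 to 22 counts per library and was not called against DMSO, with values of -0.09, 0.49 and -0.67 for romidepsin, afatinib and the combination (edgeR adjusted p = 0.872, 0.326 and 0.166). In the combination against afatinib it changed by -1.16 (SE 0.42, edgeR adjusted p = 0.0125), where IL13 changed by -1.06. It was not called in the combination against romidepsin (-0.58, edgeR adjusted p = 0.277), where IL13 changed by -2.52. Nor was it called in romidepsin against afatinib (-0.58, edgeR adjusted p = 0.205), where IL13 changed by 1.45. IRF1, a transcription factor gene between CSF2 and IL5, changed by 1.02 with romidepsin and -0.37 with afatinib. SMAD5 was the only tested gene within 250 kb of IL9, and it changed by 0.51 with romidepsin, 0.22 with afatinib and 0.88 with the combination, against 4.33, -1.99 and 4.07 for IL9.

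**Figure D5:**
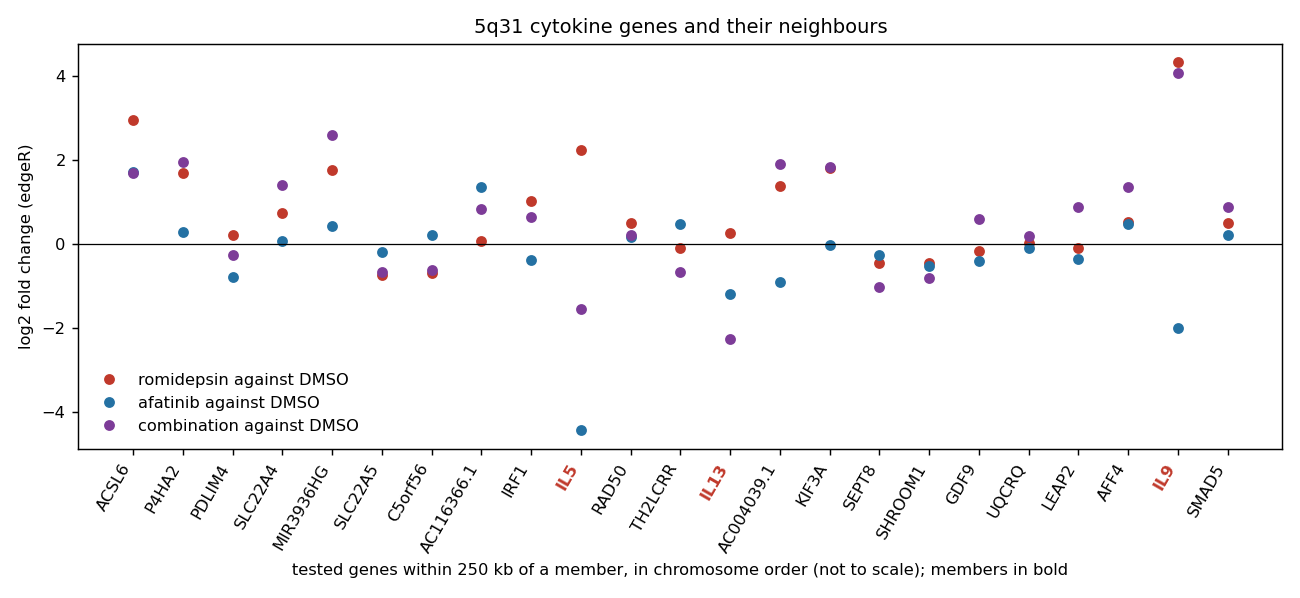
Log2 fold changes from edgeR against DMSO (vertical axis) of the tested members except IL4 and of the 20 tested genes within 250 kb of a member, in chromosome order and not to scale, with 1 colour for each treatment. IL9 has the highest value with romidepsin (4.33) and IL5 the lowest with afatinib (-4.43), while KIF3A has nearly the same value with romidepsin (1.82) and the combination (1.83).

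The genes whose log2 CPM followed a member most closely over the 12 libraries were found among 10271 tested genes of at least 5 CPM. The points share libraries and fall into the 4 treatment groups, so these correlations describe the group pattern. For IL9 they were CSRNP1 (r = 0.996), DUSP2 (0.995), AHDC1 (0.995), SYN1 (0.994) and NRGN (0.994). DUSP2, a phosphatase gene, had mean levels of 85.3 CPM with DMSO, 457 with romidepsin, 38.6 with afatinib and 361 with the combination. For IL13 they were NSFL1C (r = 0.988), RNF167 (0.988), AMMECR1 (0.987), GTF3C4 (0.987) and NCOA4 (0.987). The steps of these genes were smaller than those of IL13, and GTF3C4, for example, had means of 156, 156, 110 and 90.1 CPM in the order of DMSO, romidepsin, afatinib and combination.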

How the data were processed

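RNA of 12 MyLa libraries, 3 per treatment, was compared. The authors deposited whole-number counts of fragments per gene name, made with featureCounts 2.0.0 and GENCODE 31 from pairs with both ends mapped, without chimeric pairs, a strand option or multi-mapping reads, per the file headers. Alignment used STAR 2.7.9a and GRCh38.p12, per the submitters' processing notes. A second deposited table was not used, since its values do not follow the counts. From the counts, edgeR 4.0.16 (R 4.3.3) kept 16208 of 59050 genes (filterByExpr), scaled them by TMM and fitted glmQLFit (robust) with glmQLFTest on 4 group means, two-sided. P-values were adjusted by Benjamini-Hochberg over these genes (threshold 0.05). The interaction subtracts both single-drug log2 changes from that of the combination. CPM and RPKM use TMM-scaled totals. The scripts were tested on simulated data. Alternatives were DESeq2 1.42.0, other scalings and filters, pairwise fits, a replicate block and libraries left out.

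Named genes were the members, up to 4 called genes of at least 5 CPM per list and comparison with the largest change, 11 genes always named, and the 5 most correlated genes per member. A gene named for one comparison may be given in others, and genes overlapping a member were added. The members and lists were chosen with earlier results of these data known. Promoters are from RefSeq (GRCh38.p14).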

Additional observations from a re-analysis of the deposited data

Results flagged for a closer look

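The change with afatinib differed between cells without and with romidepsin for 2 of the cytokine genes, by edgeR's interaction test over all 12 libraries. Such differences were common, with 11.7% of all tested genes called above 0 and 18.5% below 0. For IL9 the change with romidepsin minus that without it was 1.73 on the log2 scale (edgeR adjusted p = 5.24e-13), and over the alternatives run it was 1.59 to 2.04. For IL13 it was -1.33 (edgeR adjusted p = 1.83e-13), with a range of -1.42 to -1.29. The cause of either difference was not tested.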

How the results depend on the processing

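Over 20 alternatives, 682 of 691 values of the member genes and call counts were kept. So were 4145 of 4210 values of other named genes, with 65 no longer past the threshold and 0 reversed. For genes, kept means the same direction and side of the threshold. For call counts it means a similar number of called genes, whatever their direction. The member values include those of IL4 with the combination, whose level there was part of its selection, so their stability is no support. Leaving out 1 library at a time, IL4 in romidepsin against afatinib ranged from 1.67 to 3.13 on the log2 scale. IL4 in the combination against romidepsin, given without a test, ranged from 1.08 to 2.06. IL5 in the combination against afatinib ranged from 2.09 to 5.57. The IL5 interaction ranged from -0.16 to 3.32, below 0 only without combination replicate 3. IL4 in romidepsin against afatinib was also lost without the 4 libraries with KRT5 reads (1.67, adjusted p = 0.154), and there genes called for afatinib against DMSO fell from 7351 to 4162. The cause was not tested. Replicate numbers did not pair the samples (same-number correlations of -0.112 to 0.109, 1 of 18 over 0.1, 4 of 12 libraries closest to their own number), and the replicate block changed no member's call (IL9 with romidepsin 4.33). Scaling by library size only moved the median of all genes by 0.10 for afatinib and for the combination against DMSO, and 62.2% of afatinib calls were then higher against 48.6%. The interaction could not be computed from 2 groups alone. Depth limits CSF2, IL3, IL4 and low IL5.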
